A study of Homo sapiens with 4 samples.

Results

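The serum response factor gene SRF, its actin-regulated coactivator MKL1 and 8 cytoskeletal genes known as targets of the pair were followed in TPC1, a cell line from a human papillary thyroid carcinoma that carries a CCDC6-RET fusion. The 8 are ACTA2, TAGLN, CNN1, MYL9, TPM1, TPM2, VCL and FLNA. The genes were chosen by symbol, and all 10 were found among the 20372 genes of the deposited table. For 24 h the cells received BLU6864, which inhibits RET, plus BGJ398, an FGFR inhibitor (RETi + FGFRi, 2 libraries), or BLU6864 alone (RETi, 2 libraries). Both groups therefore carried the RET inhibitor, so the comparison shows what the FGFR inhibitor added and not what BLU6864 did. Each inhibitor was given at 100, in a unit on which the labels (micromolar) and the study's methods (nanomolar) disagree. Nothing in the labels tells if replicates were grown separately, so each p-value reflects variation among these libraries only, possibly of technical origin. All cells came from 1 line.

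SRF is a transcription factor that binds the CArG box, a run of A and T between CC and GG, near the start of genes for actin, contractile proteins and the proteins that anchor actin at adhesions. MKL1 (now named MRTFA) is held in the cytoplasm by unpolymerised actin and enters the nucleus to join SRF when actin is driven into filaments. SRF can also pair with ternary complex factors (TCFs) such as ELK1, which ERK phosphorylates, and these compete with MKL1 for SRF. In epithelial and mesenchymal tumor cells the pathway is known for its part in stress fibers, adhesion and migration.

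The libraries held 24695040 to 27151015 counts after RETi + FGFRi and 26486456 to 27457040 after RETi, and 12794 genes passed the filter on low counts. Levels are normalised counts, the reads of a gene divided by 1 size factor per library. The thyroid factor PAX8 had 20648 and 18290 normalised counts after RETi + FGFRi, against 19647 and 20771 after RETi, whereas NKX2-1 was at 0 in every library and the epithelial genes EPCAM and CDH1 stayed under 3. Of 4 tested keratin genes, KRT7, KRT8 and KRT18 were called lower after RETi + FGFRi, and KRT19 was not called, at a log2 fold change of 0.26. Because several of the 10 genes mark smooth muscle, 6 smooth muscle markers were read beside them. MYOCD, the smooth muscle partner of SRF, was at 0 throughout. ACTG2 did not exceed 7.05 and LMOD1 did not exceed 9.59 normalised counts. The 6 markers summed to 65.7 and 91.6 after RETi + FGFRi, against 62.8 and 94.9 after RETi. The fibroblast gene COL3A1 was at 0 as well, and 6 fibroblast markers summed to 277.5 and 256.7 after RETi + FGFRi, against 241.2 and 286.7 after RETi. Neither sum separated the groups, although DES was called lower and SYNPO2 higher among the smooth muscle markers, and the fibroblast marker LUM was called higher, with 105.9 and 101.7 after RETi + FGFRi, against 69.6 and 63.3 after RETi. The part of these markers in the results was not tested.

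ACTA2, VCL and TPM1 were lower after RETi + FGFRi, and the other 7 genes did not pass the test. Of the 10 genes 3 fell and 0 rose at an adjusted p under 0.05 in edgeR, while 11.3% of all tested genes were called lower and 12.8% higher. At an unadjusted p under 0.05 in edgeR, 3 of the 10 were lower and 1 was higher. Over all 12794 tested genes the same threshold gave 2355 lower and 2476 higher. DESeq2 also called 3 of the 10 lower and 0 higher, beside 1023 lower and 1258 higher of the 16305 genes it fitted. The median log2 fold change of the 10 was -0.02, against 0 over all tested genes. In these bulk libraries, fewer cells with a transcript and less of it per cell cannot be told apart.

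ACTA2, the gene of smooth muscle α-actin (ENSG00000107796, chromosome 10, 90694831 to 90751147, hg19), showed the largest change of the 10. It had 198.0 and 193.3 normalised counts in the RETi + FGFRi libraries, against 336.4 and 312.6 in the RETi libraries. The libraries of each group lay close together and the groups were well apart. As fitted it decreased by 39.8%, which is -0.73 on the log2 scale (SE 0.12, 95% interval -0.995 to -0.469, adjusted p = 0.00218, edgeR). The adjusted p was at most 0.0129 over 9 alternative settings, so this call held in each of them. In the deposited coordinates ACTA2 overlaps STAMBPL1 and FAS, which had log2 fold changes of -0.26 (adjusted p = 0.28) and 0.01 (adjusted p = 0.92), and its transcript resembles those of the other actins. The handling of reads shared between genes is unknown here, so the count of ACTA2 is uncertain to that extent.

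VCL encodes vinculin, which links talin and α-catenin to actin filaments at adhesions (ENSG00000035403, chromosome 10, 75757872 to 75879918). It stood at 11834 and 11569 normalised counts after RETi + FGFRi, against 15413 and 16431 after RETi, and its groups did not overlap. Its level decreased by 26.7%, with a log2 fold change of -0.45 (SE 0.083, 95% interval -0.63 to -0.26, adjusted p = 0.00405, edgeR). The call was lost without RETi replicate 2 (log2 fold change -0.40, adjusted p = 0.0588) and was kept in the other 8 settings.

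TPM1, a tropomyosin gene whose product coils along actin filaments and steadies them (ENSG00000140416, chromosome 15, 63334831 to 63364114), had 13065 and 12435 normalised counts after RETi + FGFRi. The RETi libraries had 18044 and 16178, both above either RETi + FGFRi library. Its level decreased by 25.6%, and the log2 fold change was -0.43 (SE 0.089, 95% interval -0.62 to -0.23, adjusted p = 0.007, edgeR). Without RETi replicate 1 the adjusted p was 0.0979 at a log2 fold change of -0.34, and the call was kept in the other 8 settings. Changes of the size seen for VCL were not rare, since 15.8% of tested genes had a larger log2 fold change in either direction, and 4.99% had one larger than that of ACTA2.

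**Figure D1:**
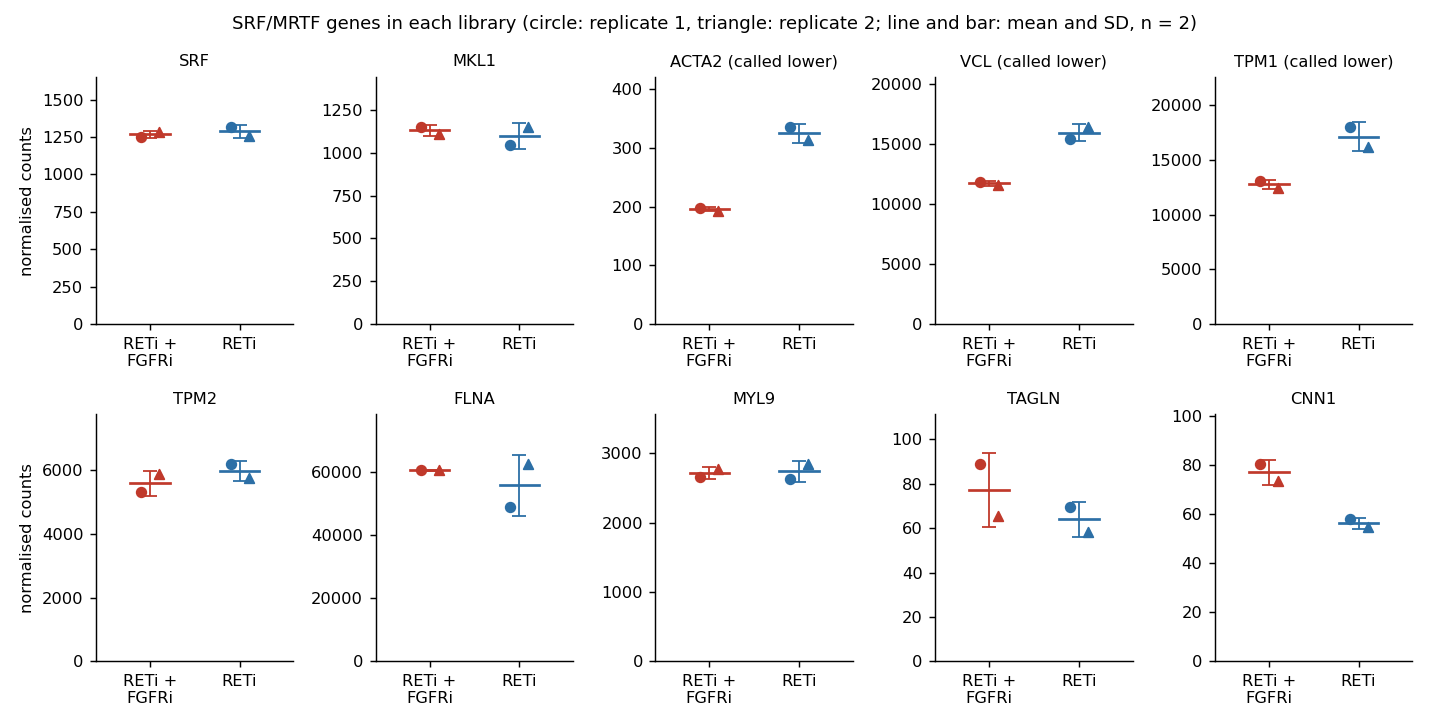
Normalised counts (y axis, from 0, on a scale of its own in each panel) of the 10 genes in the RETi + FGFRi (red, left) and RETi (blue, right) libraries. Circles are replicate 1, triangles replicate 2, and lines with bars the mean and SD of 2 libraries. ACTA2, VCL and TPM1 are lower in both RETi + FGFRi libraries, and FLNA in RETi replicate 1 lies below the other 3 libraries.

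Promoter sequence was read from RefSeq (GRCh38.p14) for 8 of the 10 genes, MKL1 under its present name, in 13 windows of 300 bases around annotated starts (250 before and 50 after). TAGLN and MYL9 were not matched. The windows were searched for the CArG box, a pattern that is its own reverse complement, and for CCGGAA on both strands, the core bound by ETS factors such as the TCFs. The CArG box occurred in 1.29% of all 35116 promoter windows, and with at most 1 of its 6 middle letters other than A or T in 8.13%. CCGGAA occurred in 17.2%. The 150 bases before the start are shown for the genes that fell and for those whose windows held a CArG box, 5′ to 3′, with CArG boxes and their 1-letter departures in capitals.
ACTA2 (chr10:88952774-88952923, minus strand): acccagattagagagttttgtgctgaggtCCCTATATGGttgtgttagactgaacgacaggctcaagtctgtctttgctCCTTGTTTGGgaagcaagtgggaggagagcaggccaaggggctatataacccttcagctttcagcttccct
VCL (chr10:73997966-73998115, plus strand): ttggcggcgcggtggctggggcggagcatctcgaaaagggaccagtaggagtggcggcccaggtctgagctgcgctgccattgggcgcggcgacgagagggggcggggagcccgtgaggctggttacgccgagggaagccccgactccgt
TPM1 (chr15:63048339-63048488, plus strand): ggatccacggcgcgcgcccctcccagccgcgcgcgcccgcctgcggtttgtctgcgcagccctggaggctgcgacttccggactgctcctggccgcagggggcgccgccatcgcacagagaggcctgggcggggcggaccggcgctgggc
SRF (chr6:43171119-43171268, plus strand): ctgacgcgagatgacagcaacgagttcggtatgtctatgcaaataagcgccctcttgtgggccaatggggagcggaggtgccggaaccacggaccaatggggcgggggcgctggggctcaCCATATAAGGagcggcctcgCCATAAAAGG
FLNA (chrX:154374635-154374784, minus strand): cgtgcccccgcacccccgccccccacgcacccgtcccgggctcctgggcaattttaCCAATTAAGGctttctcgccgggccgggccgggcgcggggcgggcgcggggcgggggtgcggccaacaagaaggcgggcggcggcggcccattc

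The first of 2 SRF windows held 2 CArG boxes, CCATATAAGG and CCATAAAAGG, beginning 30 and 10 bases before the start, and CCGGAA beginning 70 bases before it. Windows with 2 or more CArG boxes made up 0.0313% of all windows. In the FLNA window CCAATTAAGG began 94 bases before the start. ACTA2 had no full CArG box in either of its windows, but the one shown held 2 sequences that depart from it by 1 letter, CCCTATATGG and CCTTGTTTGG, at 121 and 71 bases before the start. The VCL window held none of these letters and the TPM1 window only the reverse complement of CCGGAA, beginning 75 bases before the start. None of the windows of MKL1, CNN1 or TPM2 held a match to any of the motifs. Such matches are letters in a window and do not show binding.

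The 2 regulators were not detectably changed at the level of mRNA. SRF (ENSG00000112658, chromosome 6, 43139037 to 43149243) had 1251 and 1286 normalised counts after RETi + FGFRi, against 1320 and 1255 after RETi. Its groups overlapped, with a log2 fold change of -0.02 (95% interval -0.19 to 0.14, adjusted p = 0.85, edgeR). MKL1 (ENSG00000196588, chromosome 22, 40806285 to 41032706) had 1153 and 1109 normalised counts after RETi + FGFRi, against 1046 and 1151 after RETi. Here too the groups overlapped, at a log2 fold change of 0.04 (95% interval -0.15 to 0.22, adjusted p = 0.77, edgeR). In the deposited coordinates MKL1 overlaps the gene SGSM3, so its count is uncertain in the same way as that of ACTA2. Changes of any size within these intervals remain compatible with the data. Among 11281 candidates, each averaging 50 or more normalised counts, those whose centred log2 CPM over the 4 libraries lay closest to SRF were TSPAN3, PPM1D and NLGN1, with root mean square differences of 0.0041, 0.005 and 0.0055. For MKL1 they were PLEKHB1, MUS81 and PAQR8, at 0.0083, 0.0102 and 0.0118. With flat profiles over 4 libraries, this likeness is a description and no more.

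FLNA encodes filamin A, which crosslinks actin filaments into networks (ENSG00000196924, chromosome X, 153576892 to 153603006). It had 60640 and 60764 normalised counts in the RETi + FGFRi libraries, against 49053 and 62728 in the RETi libraries. The spread lay between the RETi libraries, of which replicate 2 was 27.9% above replicate 1, and the RETi + FGFRi libraries fell between them. The log2 fold change was 0.12 (95% interval -0.15 to 0.38, adjusted p = 0.52, edgeR), and without RETi replicate 1 it was -0.05, whereas without RETi replicate 2 it was 0.31. MYH9, the gene of a nonmuscle myosin heavy chain, was also lowest in RETi replicate 1, as it had 28878 and 31218 normalised counts after RETi + FGFRi, against 18918 and 26745 after RETi. Over the 1630 tested genes with a canonical transcript of 7 kb or more, the median log2 difference of RETi replicate 1 from RETi replicate 2 was -0.05, against -0.004 for the 3026 genes under 2 kb. Between the RETi + FGFRi replicates the same medians were 0.055 and -0.091, although FLNA was nearly equal in those libraries. The part of transcript length in the FLNA values was not tested.

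TPM2, a second tropomyosin gene (ENSG00000198467, chromosome 9, 35681989 to 35691017), had 5302 and 5854 normalised counts after RETi + FGFRi, against 6184 and 5737 after RETi. The groups overlapped and the log2 fold change was -0.10 (95% interval -0.28 to 0.08, adjusted p = 0.40, edgeR). MYL9, which encodes a regulatory light chain of nonmuscle and smooth muscle myosin (ENSG00000101335, chromosome 20, 35169887 to 35178228), had 2653 and 2776 normalised counts after RETi + FGFRi, against 2638 and 2849 after RETi. Its groups overlapped, at a log2 fold change of -0.02 (95% interval -0.19 to 0.15, adjusted p = 0.89).

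TAGLN and CNN1, like ACTA2 markers of contractile smooth muscle, had under 100 normalised counts in every library, and neither was called. TAGLN, the transgelin (SM22) gene (ENSG00000149591, chromosome 11, 117070037 to 117075498), had 89.0 and 65.4 normalised counts after RETi + FGFRi, against 69.6 and 58.5 after RETi. The groups overlapped, and the log2 fold change of 0.26 had a wide interval (-0.22 to 0.75, adjusted p = 0.41, edgeR). At its end TAGLN overlaps PCSK7, which had a log2 fold change of -0.05 (adjusted p = 0.75). CNN1, the calponin 1 gene (ENSG00000130176, chromosome 19, 11649532 to 11661138), had 80.5 and 73.5 normalised counts after RETi + FGFRi, against 57.9 and 54.7 after RETi. Both RETi + FGFRi libraries were above both RETi libraries, yet the log2 fold change of 0.45 (SE 0.20, 95% interval 0.01 to 0.89) did not pass once adjusted over all genes tested (adjusted p = 0.126, edgeR). It did not pass in any of the 9 alternative settings. CNN1 was thus 1 of 4 genes of the 10 whose groups did not overlap, the others being ACTA2, VCL and TPM1, while groups did not overlap in 65.1% of all tested genes (33.0% with RETi + FGFRi lower and 32.1% with it higher).

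**Figure D2:**
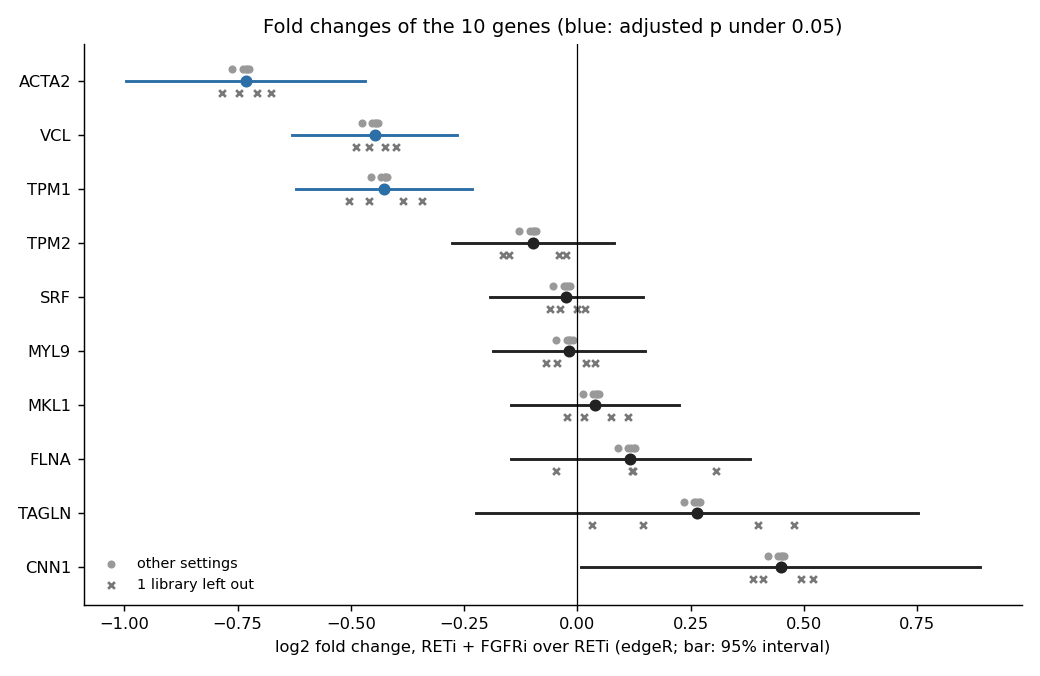
Log2 fold change of RETi + FGFRi over RETi (x axis) for each of the 10 genes, with its 95% interval from edgeR as a bar and in blue where the adjusted p was under 0.05. Grey circles above each bar are the 5 other settings of normalisation, filter, tool and block, and crosses below it the 4 fits with 1 library left out. The crosses of FLNA run from -0.05 to 0.31, and those of ACTA2 from -0.78 to -0.68.

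Ratios of 2 genes within a library do not depend on how libraries are scaled. They were used to set TPM1 beside its close relatives, VCL beside a binding partner and MKL1 beside SRF. TPM1 had 2.46 and 2.12 reads for each TPM2 read in the RETi + FGFRi libraries, against 2.92 and 2.82 in the RETi libraries. TPM1 had 1.51 and 1.36 reads for each TPM3 read after RETi + FGFRi, against 1.797 and 1.599 after RETi. Relative to TPM4, TPM1 stood at 0.908 and 0.880 after RETi + FGFRi, against 1.14 and 1.11 after RETi. All 3 ratios, to the remaining tropomyosin genes, were lower in each RETi + FGFRi library than in either RETi library. VCL stood at 0.826 and 0.807 reads for each read of TLN1, the talin that binds vinculin, after RETi + FGFRi, against 1.20 and 1.02 after RETi. MKL1 to SRF was 0.922 and 0.863 after RETi + FGFRi, against 0.793 and 0.917 after RETi, with overlapping groups. With 2 libraries a group these ratios are given without a test. TPM1 and VCL were taken as numerators because they were called lower, so their lower ratios add no separate support.

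To set the levels of different genes side by side, normalised counts were divided by the length of the canonical GENCODE v44 transcript, giving normalised counts per kb. TPM1 was highest in both groups, at a mean of 10477 after RETi + FGFRi and 14060 after RETi. FLNA followed at 7136 and 6570, TPM2 at 4688 and 5009, and VCL at 2129 and 2896. These 4 genes did not overlap one another in any library of either group. MYL9 was at 974.2 after RETi + FGFRi and 984.7 after RETi, well above SRF at 299.7 and 304.3 and MKL1 at 250.2 and 242.9. ACTA2 was at 145.0 after RETi + FGFRi, below MKL1, and at 240.5 after RETi, where its libraries overlapped those of MKL1. CNN1 (51.4 and 37.5) and TAGLN (20.4 and 16.9) were lowest. For MYL9 and TAGLN the place depends on the transcript. Shorter protein-coding transcripts of 1024 and 1048 bases would put MYL9 at 2651 and 2679, and TAGLN at 73.7 and 61.1. Other transcripts of the remaining genes, TPM1 among them, were not tried, so their order holds for the canonical transcripts only. The 10 genes together took 0.352% to 0.368% of all counts in the RETi + FGFRi libraries, against 0.363% to 0.406% in the RETi libraries. These ranges overlap. FLNA alone made up 63.0% and 63.2% of the counts of the 10 after RETi + FGFRi, against 52.1% and 58.8% after RETi.

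Related genes did not all move with the member of their family. TPM3 and TPM4 had log2 fold changes of -0.18 (adjusted p = 0.11, edgeR) and -0.09 (adjusted p = 0.44), so of 4 tropomyosin genes TPM1 was the one called. Whether the fall of TPM1 differs from the values of the others was not tested. The filamin gene FLNC was not called, at 0.02 (adjusted p = 0.89). Among calponins, CNN3 rose by 0.35 on the log2 scale (adjusted p = 0.0169, SE 0.087), with 25331 and 27630 normalised counts after RETi + FGFRi, against 21039 and 20544 after RETi, and its call was lost without RETi replicate 1 or RETi replicate 2. CNN2 was not called, at -0.20 (adjusted p = 0.088). TAGLN2 stood at -0.05 (adjusted p = 0.68), MKL2 at 0.15 (adjusted p = 0.22), MYL12A at -0.06 (adjusted p = 0.64) and MYL12B at 0.24 (adjusted p = 0.072). Short reads from such relatives can be shared between them, which makes these counts uncertain to an unknown degree.

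**Figure D3:**
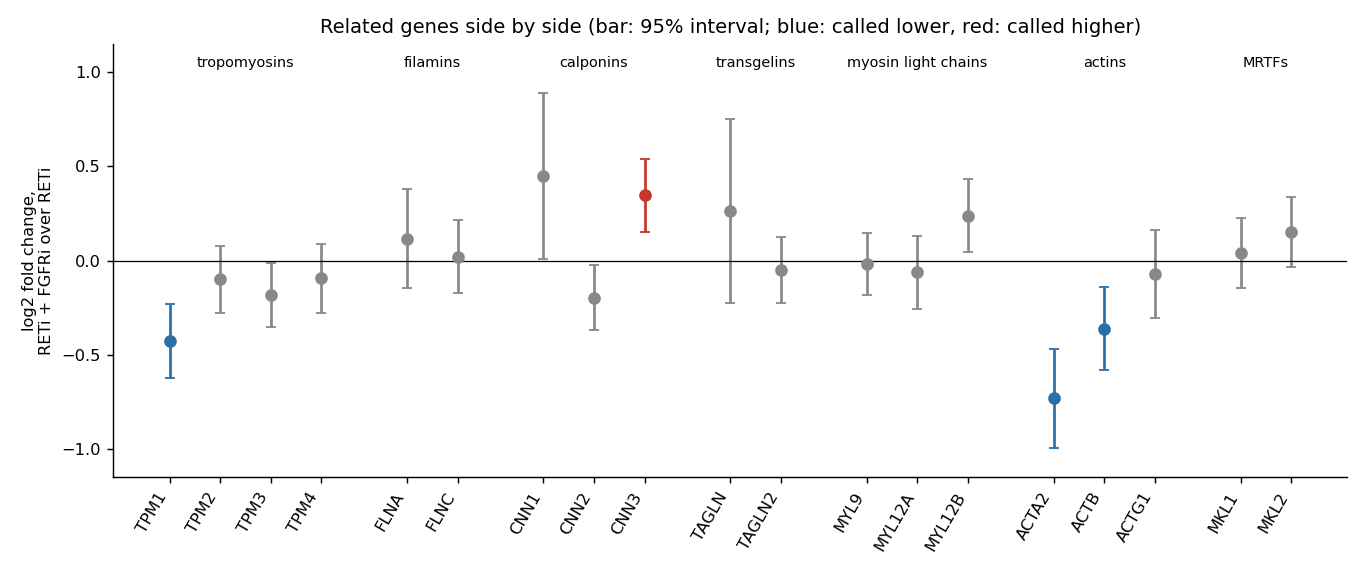
Log2 fold change of RETi + FGFRi over RETi (y axis, edgeR, bars 95% intervals) for the genes and their relatives, grouped by family along the x axis. Blue points were called lower, red points higher and grey points not called. TPM1, ACTA2 and ACTB were called lower and CNN3 higher, and the intervals of TPM3 and CNN2 below 0 and of CNN1 and MYL12B above 0 are also clear of it without a call.

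Other genes of the pathway were read from lists written from textbook knowledge. Among the SRF cofactors and their regulators, 2 of 8 tested genes fell and 0 rose in edgeR (1 higher at an unadjusted p under 0.05, and 0 higher by DESeq2), with a median log2 fold change of -0.13. This is a share lower of 25.0%, beside 11.3% of all tested genes, of which 12.8% were higher. Of all 12794 tested genes, 2476 were higher at an unadjusted p under 0.05 in edgeR, and DESeq2 called 1258 of its 16305 genes higher. ELK3, a TCF, was at a log2 fold change of -0.55 (adjusted p = 0.000749, SE 0.072), and FHL1, a LIM-domain gene, with one of -0.31 (adjusted p = 0.0144). The TCF gene ELK1 was at -0.24 (adjusted p = 0.058) and FHL2, a LIM-domain cofactor of SRF, at 0.24 (adjusted p = 0.059). Without RETi replicate 1 or RETi replicate 2, ELK3 was the 1 gene of the list that fell, and without RETi + FGFRi replicate 1, FHL2 rose.

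Of 26 other actin and contractile targets 6 fell, 1 rose and 19 did not pass, with a median log2 fold change of -0.12. These are shares of 23.1% lower and 3.85% higher, beside 11.3% lower and 12.8% higher of all tested genes. DESeq2 called 5 of the list lower, without DES, and 1 higher, beside 1023 lower and 1258 higher over all genes. The actin-capping gene CAPG fell with a log2 fold change of -0.66, WDR1, which aids actin disassembly, with one of -0.41, the smooth muscle gene SMTN with one of -0.57, and the fibronectin receptor gene ITGA5 with one of -0.38. ACTB, the β-actin gene, was also among the 6, at 79813 and 83874 normalised counts after RETi + FGFRi, against 100464 and 109303 after RETi (log2 fold change -0.36, adjusted p = 0.0259, edgeR), while ACTG1 was at -0.07 (adjusted p = 0.66). DES, the remaining gene of the 6, was at 6.35 and 8.05 normalised counts after RETi + FGFRi, against 21.6 and 25.9 after RETi, too few reads for a firm size. Without RETi replicate 2, CAPG, SMTN and WDR1 were the 3 that fell, and without RETi replicate 1 the 5 that fell were these with ITGA5 and ZYX, so ACTB and DES were called in neither setting. Without RETi replicate 1, 0 of the list rose, and the count was 2 (CNN3 and MYH9) without RETi + FGFRi replicate 1 or RETi + FGFRi replicate 2.

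Targets of the TCF type, the branch that ERK drives, were lower in 5 of 8 tested cases, and 0 rose in edgeR. At an unadjusted p under 0.05 in edgeR 6 were lower and 1 was higher, beside 2355 lower and 2476 higher of all 12794 tested genes. DESeq2 called 4 of the list lower, without IER2, and 0 higher, beside 1023 lower and 1258 higher of the 16305 genes it fitted. The list had a median log2 fold change of -0.30, and FOS (-1.96), EGR1 (-0.85), NR4A1 (-0.64) and MCL1 (-0.28) had the smallest p. FOS had few reads, at 21.2 and 16.1 normalised counts after RETi + FGFRi, against 88.3 and 57.5 after RETi. The size of its fall is therefore uncertain (SE 0.31). FOS, EGR1 and NR4A1 encode transcription factors of the early response and MCL1 a survival factor. Without RETi replicate 1 the 3 that fell were EGR1, FOS and NR4A1, without RETi replicate 2 the 2 that fell were EGR1 and FOS, and without RETi + FGFRi replicate 1, JUNB rose. The share called lower was 62.5% here, 36.8% of the focal adhesion partners described next, 30.0% of the 10 genes, 25.0% of the cofactors and 23.1% of the other actin and contractile targets, beside 11.3% of all tested genes. These shares rest on few genes and the difference between lists was not tested.

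Focal adhesion partners of vinculin and filamin were lower in 7 of 19 tested cases, with 1 higher and a median log2 fold change of -0.22, a share lower of 36.8% beside 11.3% of all tested genes, of which 12.8% were higher. FILIP1L, a filamin A interacting protein homologue, had a log2 fold change of -0.60 (adjusted p = 0.00123, edgeR), and SORBS3, whose product binds vinculin, one of -0.35. PTK2, the focal adhesion kinase gene, had one of -0.31 (adjusted p = 0.0142, edgeR). CTNNB1, at -0.35, was counted in this list although its product, β-catenin, is a protein of cell-cell junctions. The 1 that rose was LPP, at 0.43 (adjusted p = 0.0247), at 3722 and 3564 normalised counts after RETi + FGFRi, against 2295 and 3106 after RETi, and 0 rose without RETi replicate 1. With either RETi library left out, fewer genes were called lower in this list, and fewer over all genes as well. FILIP1L alone of the list fell both without RETi replicate 1 and without RETi replicate 2. The share lower of 36.8% therefore depends on having both RETi libraries. DESeq2, with all libraries, called 6 of the list lower and 1 higher, beside 1023 lower and 1258 higher over all genes.

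**Figure D4:**
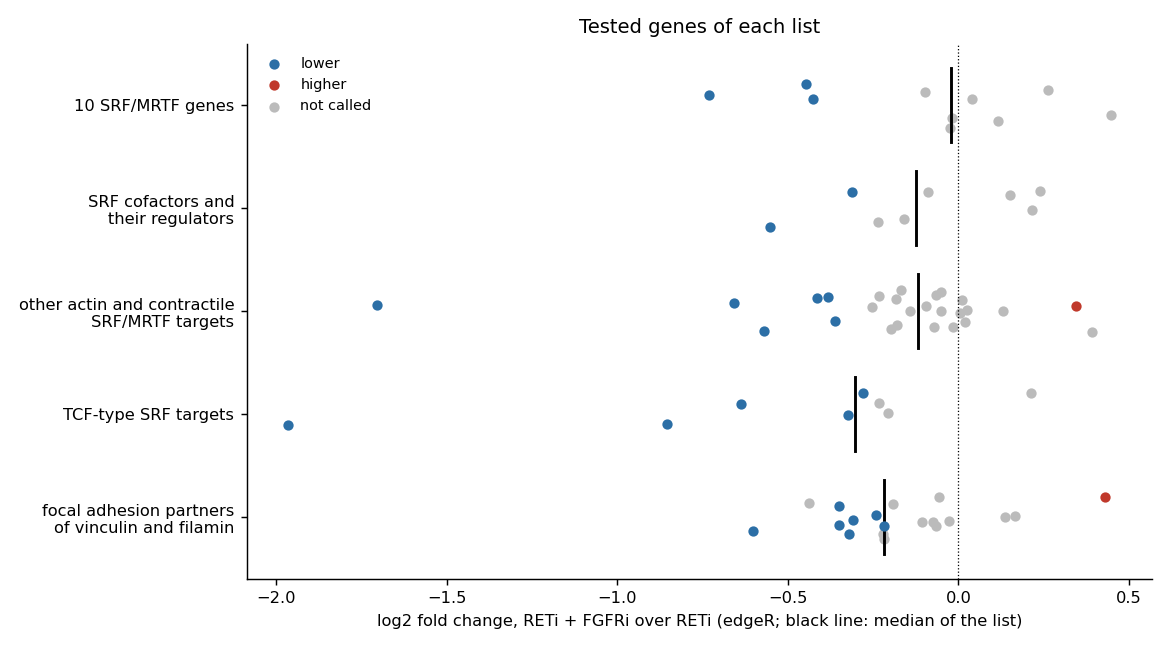
Log2 fold change of RETi + FGFRi over RETi (x axis, edgeR) for each tested gene of the 10 and of 4 other lists (rows). Blue points were called lower, red higher and grey not called, and the black line is the median of a list, which is -0.02 for the 10 genes and -0.30 for the TCF-type targets.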

How the data were processed

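TPC1 libraries, 2 per group, were compared, with groups and replicate numbers taken from the labels. Per the labels, TruSeq RNA libraries were read as 50 bp single-end reads on a HiSeq instrument, with STAR 2.3, DESeq2 and the build hg19 listed in the processing notes of the submitters, whereas the methods of the study describe a stranded TruSeq kit and a paired-end run. Neither the counting tool nor its strand setting is given in the sources used here. The deposited table from the authors holds raw counts per gene, and a normalised count signal that equals each raw count over 1 size factor per library. Their own comparison columns (fold changes and p-values) were not used.

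The quasi-likelihood F-test of edgeR 4.0.16 (R 4.3.3, TMM factors, no covariate) was run on raw counts, after filterByExpr at a minimum count of 10, in 1 fit over 12794 genes, with Benjamini-Hochberg adjustment over all of them and calls at an adjusted p under 0.05. The SE is the log2 fold change over the square root of F. Libraries of a group differed beyond sampling noise (chi-square per degree of freedom 14 for RETi + FGFRi and 7.91 for RETi) and were kept apart. The fitting code was tested on simulated data. Alternatives were DESeq2 1.42.0 and its size factors, total counts alone, no filter, a replicate block, and each library left out. All 10 genes were described whatever their result, and from each other list the 4 with the smallest p and the relatives of the 10. ACTB, ACTG1, DES, BCAR1, LPP, MYH9, TLN1 and genes overlapping a member were named after their values were seen. The genes and lists were chosen with earlier results of these data known. Gene coordinates are hg19 as deposited, 1-based. Promoters and transcript lengths come from GRCh38 and no coordinates were converted. ITGB3 and PECAM1 were in the lists but are not analysed here, and some other listed genes, with 1 list, are not reported here.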

Additional observations from a re-analysis of the deposited data

How the results depend on the processing

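Of 90 comparisons of a gene of the 10 with its value under an alternative, 83 kept direction and side of the threshold, 2 lost the call (TPM1 and VCL, above) and 5 changed sign, none of them called. With 1 library left out, the log2 fold change of SRF ranged from -0.0601 to 0.0155, that of MKL1 from -0.024 to 0.1104, that of MYL9 from -0.0692 to 0.0387 and that of FLNA from -0.0467 to 0.3051, the sign changing without RETi replicate 1 for SRF, MKL1 and FLNA, and without RETi replicate 2 or RETi + FGFRi replicate 1 for MYL9. With 1 library left out the 10 genes gave 0 higher and 2 to 3 lower, all genes 691 to 1942 higher and 553 to 1503 lower, the cofactor list 0 to 1 higher and 1 to 3 lower, the other actin and contractile list 0 to 2 higher and 3 to 8 lower, the TCF-type list 0 to 1 higher and 2 to 5 lower, and the focal adhesion list 0 to 1 higher and 1 to 9 lower. All genes were 850 higher and 653 lower without RETi replicate 1 and 691 and 553 without RETi replicate 2. Such fits have 1 group with a lone library, assumed to vary like the other, and fewer samples. With total counts alone 2 other actin and contractile genes rose and 11 focal adhesion genes fell. Over all genes this setting gave 1507 higher and 1809 lower, against 1643 and 1446 in the main fit. The median log2 fold change of all genes was then -0.028, against 0 in the main fit. The same replicate numbers did not deviate together (r = 0.025 over genes, 2 pairs), and the numbers were not used to pair libraries. A replicate block gave 2041 genes higher and 1738 lower, 3 of the 10 lower and 0 higher (SRF, -0.02; ACTA2, -0.73), 1 cofactor gene higher and 2 other actin and contractile genes higher. The fit has 2 residual degrees of freedom. Each p-value and interval also draws on 8.96 prior degrees of freedom, estimated from the spread of all tested genes. TAGLN and CNN1, at under 100 reads a library, have the widest intervals of the 10 genes.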
